A study of Mus musculus with 16 samples.

Results

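Whole-liver RNA of mice that had recovered for 4 weeks after 8 weeks of thioacetamide was compared with that of mice at the end of the same 8 weeks, gene by gene. The comparison took 4 of the 16 libraries of the series: both libraries labelled as recovered for 4 weeks without choline, and both labelled as thioacetamide for 8 weeks. It took every gene of the table, of which 17292 of 55401 passed the filter on low counts and were tested. The question is which transcripts of the injured liver had changed 4 weeks after the toxin was withdrawn.

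All animals were wild type by their label. The mice of the recovered libraries had drunk thioacetamide, 300 mg/L of water, for 8 weeks and then spent 4 weeks on water without choline chloride. Those of the injured libraries had the same 8 weeks and no recovery. For context the text also gives livers after 1 and 2 weeks of recovery without choline, livers after 4 weeks of recovery with choline chloride at 3.5 g/L, and untreated control livers, in 2 libraries each. Strain, sex, age, feeding state and hour of sampling are not named in the sources. The labels do not state whether 2 libraries of 1 group are 2 animals, so each p-value sets a difference against the spread of the libraries, and that spread may be technical.

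Thioacetamide is bioactivated by cytochrome P450 enzymes of the hepatocytes around the central vein, which it kills. Repeated injury makes hepatocytes divide, activates stellate cells to myofibroblasts that lay down fibrillar collagen, expands bile duct cells and recruits monocyte-derived macrophages. When the toxin is withdrawn, scar is partly resorbed, dividing stops and hepatocytes regain the enzymes of their zone. Sterol synthesis in hepatocytes is set by SREBP2, a transcription factor released when membrane cholesterol is low.

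Totals ran from 24970717 to 33645258 expected counts in the 4 libraries, and levels are given as CPM, the count per 1000000 counts of the scaled library size. Injured replicate 1 stood apart. Malat1, a long RNA kept in the nucleus, was at 5230 and 5831 CPM in the recovered libraries, against 1019 and 5988 CPM in the injured libraries, so that 1 injured library was low. Untreated control replicate 1 was lower still, with 146 and 5233 CPM in the 2 control libraries. On the first principal component, which held 38.6% of the variance, injured replicate 1 lay at -66.6 and control replicate 1 at -165, with the other 14 libraries between -10.7 and 40.1. Bile duct markers also differed between the injured libraries: the 18 genes summed to 205 and 316 CPM in the recovered libraries, against 635 and 221 CPM in the injured libraries. Hepatocyte markers were present in all these libraries: 22 pericentral genes summed to 6449 and 7137 CPM in the recovered libraries, against 2792 and 2287 CPM in the injured libraries. Each count above 1 of list members called between recovered and injured liver is therefore followed by its leave-out counts, those in 4 fits without recovered replicate 1, recovered replicate 2, injured replicate 1 and injured replicate 2, in this order. Where a leave-out count is 0, the number at an unadjusted p under 0.05 in edgeR's test stands with it. In bulk RNA, fewer cells of a type and less RNA per cell cannot be told apart.

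After 4 weeks of recovery 2569 genes differed from the end of thioacetamide, 14.9% of those tested, 1118 of them higher (6.47%) and 1451 lower (8.39%). These are calls at an adjusted p under 0.05 in edgeR's two-sided quasi-likelihood test. Of the genes that rose, 595 did so at least 2-fold and 165 at least 4-fold, and of those that fell, 857 and 327 did. The median log2 fold change of all tested genes was 0.01. Without recovered replicate 1, 899 genes were called (4.98% of those tested, with 403 higher, 2.23%, and 496 lower, 2.75%), and without recovered replicate 2 there were 893 (4.96% of those tested, with 445 higher, 2.47%, and 448 lower, 2.49%). Without injured replicate 1, 1131 genes were called (6.32% of those tested, with 469 higher, 2.62%, and 662 lower, 3.7%), and 1053 of them were among the 2569. Without injured replicate 2 the count was 2276 (12.7% of those tested, with 1052 higher, 5.89%, and 1224 lower, 6.85%). Without control replicate 1 or 2 the counts were 5559 and 5549, and a fit of the 4 libraries alone gave 1574. In fits that leave 1 library in a group, that library is assumed to vary like the other groups.

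Genes of cholesterol synthesis, cell division, oncofetal genes, p53 targets and NRF2 targets were lower, and male-biased, bile acid transport, pericentral and endothelial genes were higher, in shares well above these backgrounds. These are not the only such lists. Bile acid synthesis and periportal genes were higher, and fatty acid and triglyceride synthesis genes lower, in shares much like that of the pericentral genes. In the plot of all 43 gene lists oncofetal, cholesterol synthesis and cell division genes have the lowest medians and male-biased genes the highest. The lists for sterol uptake and regulation (0.05), fatty acid oxidation (0.10) and lymphocytes (0.12) lie close to 0. The fatty acid oxidation median was 0.44 without injured replicate 1 and -0.14 without injured replicate 2. The lists were chosen with earlier results of these data known, so a share above the background is no evidence of enrichment. The genes of each list are described by their counts and median, without a test of the list.

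**Figure D1:**
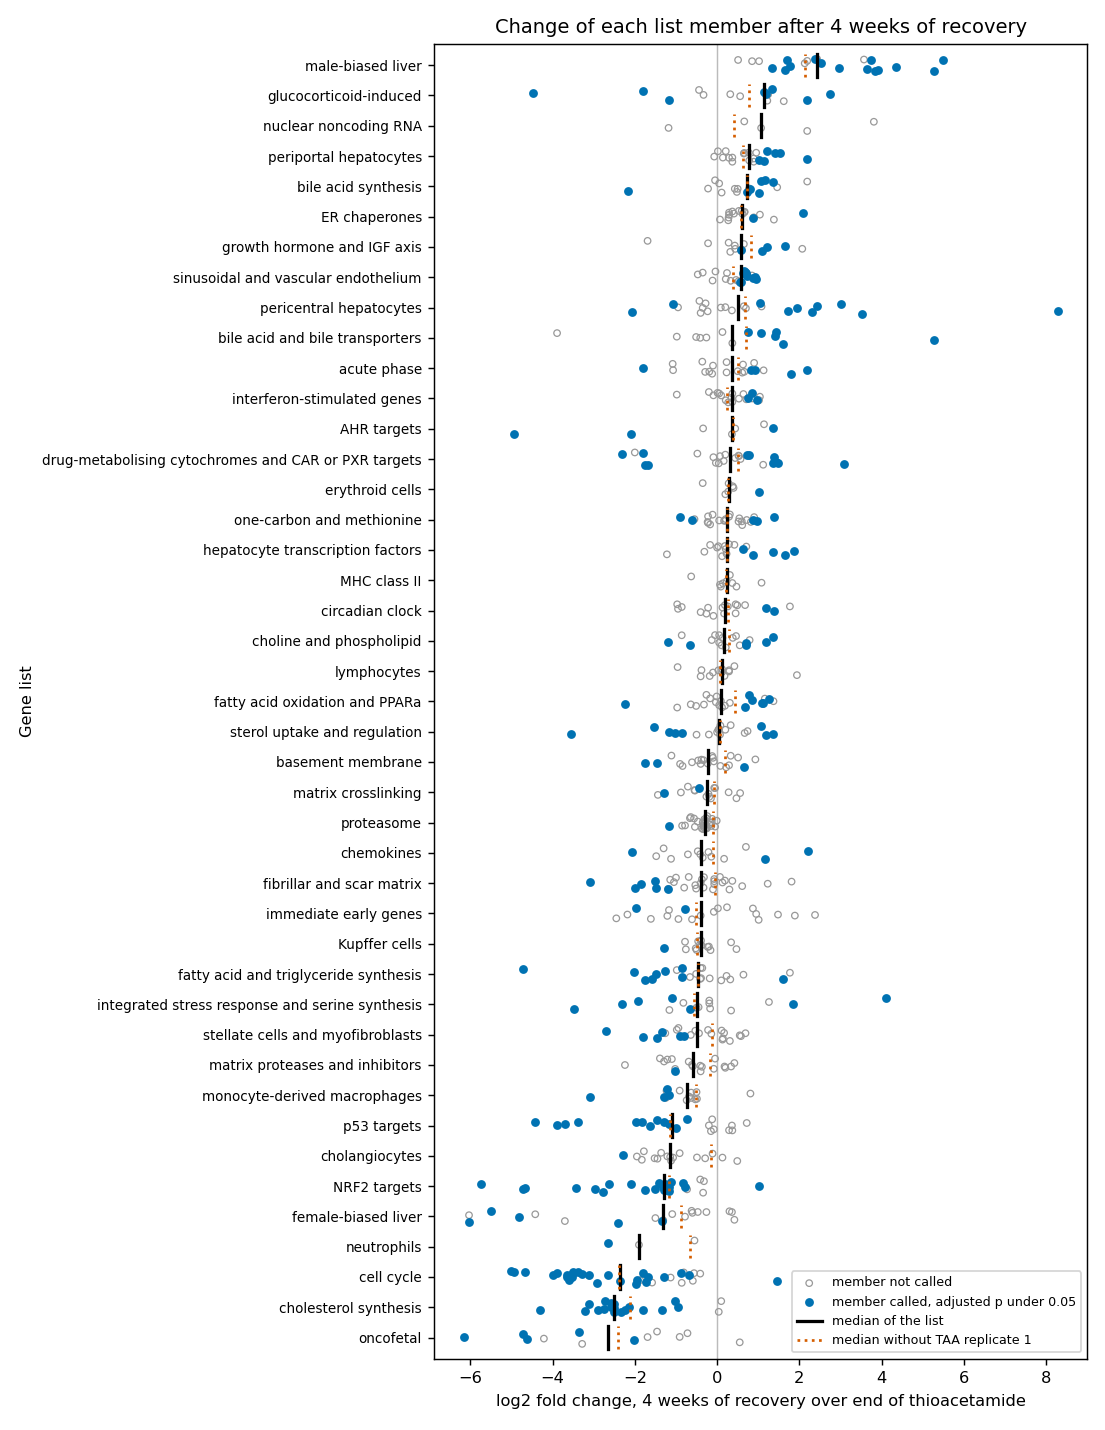
Change of each tested member of 43 gene lists (rows), as the log2 fold change of 4 weeks of recovery over the end of thioacetamide (x axis). Filled points are members called at an adjusted p under 0.05, open points are the others, black bars are list medians and dotted orange bars the medians without injured replicate 1. Cholesterol synthesis (median -2.50) and cell cycle (-2.37) lie near the bottom and male-biased liver genes (2.43) at the top; the medians of cholangiocyte and scar matrix genes move to near 0 without injured replicate 1 (-0.15 and -0.05).

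Cholesterol synthesis was the list with the largest share of members lower: 18 of 20 genes were lower in the recovered libraries, with a median log2 fold change of -2.50, and leave-out counts of 17, 16, 16 and 18 (median -2.12 without injured replicate 1). The members called lower included early and late steps of the pathway. Pmvk, phosphomevalonate kinase, had 9.8 and 10.8 CPM in the recovered libraries, against 56.2 and 48.7 CPM in the injured libraries (log2 fold change -2.34 ± 0.17, adjusted p = 6.74e-05). Its groups lay far apart, and the replicates differed little.

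Fdft1, which joins farnesyl units to squalene, had 26.3 and 27 CPM in the recovered libraries, against 183 and 120 CPM in the injured libraries (log2 fold change -2.51 ± 0.23, adjusted p = 0.000187). Sqle, which oxidises squalene and is a control point of the pathway, had 7.45 and 4.76 CPM in the recovered libraries, against 143 and 98 CPM in the injured libraries, a 19.7-fold lower level (log2 fold change -4.30 ± 0.50, adjusted p = 0.000471). Sqle had the largest change of the 20 members, and in both genes each recovered library lay below each injured one. Msmo1, which removes methyl groups from lanosterol products, had 19.6 and 18.3 CPM in the recovered libraries, against 190 and 137 CPM in the injured libraries (log2 fold change -3.11 ± 0.25, adjusted p = 9.35e-05). Dhcr7, the reductase of the last step (GRCm38, chromosome 7, 143823167 to 143848409), had 17.6 and 17 CPM in the recovered libraries, against 112 and 83.9 CPM in the injured libraries (log2 fold change -2.50 ± 0.20, adjusted p = 9.35e-05). The replicates of Dhcr7 were within 1 CPM of each other after recovery.

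The 2 members that did not pass the test were Tm7sf2, a sterol reductase, with 51.7 and 45.9 CPM in the recovered libraries, against 48.9 and 42.5 CPM in the injured libraries (log2 fold change 0.10 ± 0.26, adjusted p = 0.833), and Ebp, a sterol isomerase, with 99.6 and 95.3 CPM in the recovered libraries, against 106 and 82.6 CPM in the injured libraries (log2 fold change 0.04 ± 0.24, adjusted p = 0.921). The groups overlapped in both. Sc5d, a sterol desaturase, fell less than the median of the list, with 179 and 177 CPM in the recovered libraries, against 437 and 284 CPM in the injured libraries (log2 fold change -1.02 ± 0.24, adjusted p = 0.0156). Sc5d (adjusted p = 0.138) did not pass without injured replicate 1. Sc5d (adjusted p = 0.0939) missed the threshold without recovered replicate 1. Sc5d (adjusted p = 0.104) did not pass without recovered replicate 2.

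**Figure D2:**
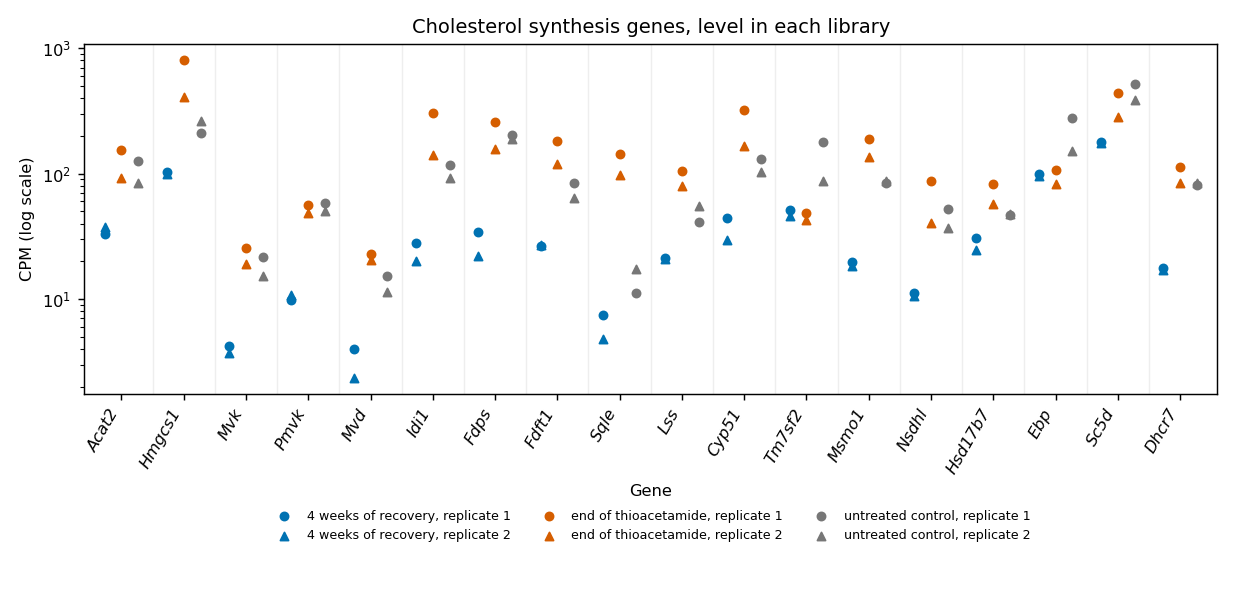
Level of 18 of the 20 cholesterol synthesis genes (x axis, in pathway order) in CPM (y axis, log scale) in each library after 4 weeks of recovery (blue), at the end of thioacetamide (orange) and in untreated control (grey), with replicate 1 as circles and replicate 2 as triangles. The blue points of 16 genes lie below both orange points, and those of most genes also lie below the grey points; Tm7sf2 and Ebp do not show the fall.

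The level at 4 weeks lay below that of untreated liver as well. Against control, 17 of the 20 genes were lower (median log2 fold change -1.53), where 12.2% of all tested genes were called lower. The count was also 17 without both libraries low in Malat1, and in fits without recovered replicate 1, recovered replicate 2, control replicate 1 and control replicate 2 it was 6, 6, 12 and 17. The counts over all genes moved in these fits too, as given with the comparison with control below. Calls against control rest on all groups sharing 1 estimate of spread: edgeR called 0 genes in a fit of the 4 libraries alone, where 2033 had an unadjusted p under 0.05. Dhcr7 had 17.6 and 17 CPM in the recovered libraries, against 81.2 and 84.3 CPM in control (log2 fold change -2.26 ± 0.19, adjusted p = 0.000466). Fdps, farnesyl diphosphate synthase, had 34.2 and 22 CPM in the recovered libraries, against 205 and 188 CPM in control (log2 fold change -2.81 ± 0.29, adjusted p = 0.00103). Sqle, with 7.45 and 4.76 CPM in the recovered libraries, against 11.2 and 17.4 CPM in control, did not pass that test (log2 fold change -1.23 ± 0.46, adjusted p = 0.0747). Over the weeks Dhcr7 decreased at each step. It was at 112 and 83.9 CPM at the end of thioacetamide, 71.9 and 68.2 CPM after 1 week, 46.6 and 43.5 CPM after 2 weeks and 17.6 and 17 CPM after 4 weeks. Against 2 weeks it was the single member of the list called by edgeR (log2 fold change -1.38 ± 0.19, adjusted p = 0.0213), while DESeq2 called 9 lower. The edgeR call was lost whichever library of these 2 groups was left out. The list median was -0.86 (-0.94 without recovered replicate 1 and -0.82 without recovered replicate 2), against 0.02 for all tested genes. In livers recovered for 4 weeks with choline, which were not compared here, Dhcr7 was at 58.8 and 58.8 CPM. The whole list summed to 2295 and 2473 CPM there, against 1499 and 1360 CPM in the recovered libraries. Feeding state and hour of sampling are not given, and their part in these and the fatty acid genes below was not tested.

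The promoters of 3 of these genes are shown because the members moved together: the one whose window holds the sterol element and the 2 with the smallest p among those with a CCAAT box, chosen after the values were seen. They are from RefSeq on GRCm38.p6 and run from 250 bases before to 50 bases after the start, at chr13:119690101-119690400 (+), chr3:89454291-89454590 (+) and chr7:143829964-143830263 (+). Capitals mark matches of TCACNCCAC, a form of the SREBP element, and of CCAAT, the box bound by NF-Y, on either strand. The 2 motifs do not overlap in these windows.
Hmgcs1: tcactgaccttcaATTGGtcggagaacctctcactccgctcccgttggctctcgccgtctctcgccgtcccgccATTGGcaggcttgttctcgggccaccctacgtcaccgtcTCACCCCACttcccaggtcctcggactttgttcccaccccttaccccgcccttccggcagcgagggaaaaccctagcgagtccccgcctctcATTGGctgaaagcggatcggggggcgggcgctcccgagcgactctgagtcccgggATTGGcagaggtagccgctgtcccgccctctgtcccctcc
Pmvk: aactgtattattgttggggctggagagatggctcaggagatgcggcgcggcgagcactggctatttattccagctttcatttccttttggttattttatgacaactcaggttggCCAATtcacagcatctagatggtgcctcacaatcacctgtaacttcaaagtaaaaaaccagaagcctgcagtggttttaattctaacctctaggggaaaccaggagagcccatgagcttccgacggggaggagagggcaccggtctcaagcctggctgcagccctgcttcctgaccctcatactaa
Dhcr7: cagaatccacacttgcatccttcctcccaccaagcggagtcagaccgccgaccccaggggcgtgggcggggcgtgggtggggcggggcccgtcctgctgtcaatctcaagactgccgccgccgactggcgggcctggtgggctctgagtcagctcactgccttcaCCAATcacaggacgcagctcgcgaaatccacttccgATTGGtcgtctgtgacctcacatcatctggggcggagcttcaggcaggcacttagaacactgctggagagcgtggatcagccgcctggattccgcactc
Of the 20 genes 15 had a promoter in the table. CCAAT was found in 14 of the 15 (93.3%), against 41.1% of all 27025 genes with a promoter, and TCACNCCAC in 1 of 15 (6.67%), against 1.44%. A high share of CCAAT was not particular to this list. It was in 20 of 27 cell division genes with a promoter (74.1%), and in 8 of 20 NRF2 targets (40%). In Hmgcs1, the synthase that makes HMG-CoA, the TCACNCCAC match begins 137 bases before the start. Hmgcs1 itself had 103 and 99.8 CPM in the recovered libraries, against 808 and 410 CPM in the injured libraries (log2 fold change -2.59 ± 0.34, adjusted p = 0.000816), with no overlap. A match is a string of letters and not a tested binding site.

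Genes around the pathway moved with it in part. In the list of sterol uptake and regulation 5 of 19 tested genes fell and 3 rose (median 0.05). The leave-out counts were 2, 2, 2 and 4 lower, and 2, 1, 1 and 1 higher. Stard4, a sterol carrier, had 43.3 and 30.9 CPM in the recovered libraries, against 115 and 99 CPM in the injured libraries (log2 fold change -1.53 ± 0.20, adjusted p = 0.000919). Insig1, which holds SREBP in the endoplasmic reticulum, had 184 and 182 CPM in the recovered libraries, against 345 and 317 CPM in the injured libraries (log2 fold change -0.86 ± 0.20, adjusted p = 0.0142). Both were lower in both recovered libraries than in either injured library. Mylip, a ubiquitin ligase induced by oxysterols, moved the other way with 14.7 and 13.2 CPM in the recovered libraries, against 7.53 and 5.88 CPM in the injured libraries (log2 fold change 1.06 ± 0.20, adjusted p = 0.0062). Insig1 (adjusted p = 0.0796) did not pass without injured replicate 1. Insig1 (adjusted p = 0.0893) and Mylip (0.0522) missed the threshold without recovered replicate 1. Insig1 (adjusted p = 0.096) did not pass without recovered replicate 2.

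Genes that make fatty acids and triglycerides fell in part: 8 of 22 were lower and 1 was higher (median -0.46), with leave-out counts of 2, 4, 6 and 9 lower. Fasn, fatty acid synthase, had 232 and 247 CPM in the recovered libraries, against 781 and 827 CPM in the injured libraries (log2 fold change -1.75 ± 0.33, adjusted p = 0.0057), while 2 weeks of recovery had 844 and 979 CPM and untreated control 398 and 990 CPM. Thrsp, a nuclear protein that follows lipogenesis, had 11.6 and 16.3 CPM in the recovered libraries, against 34.9 and 79 CPM in the injured libraries (log2 fold change -2.03 ± 0.39, adjusted p = 0.00598). Thrsp was lower in the recovered libraries than at every other time, with 211 and 137 CPM after 1 week and 89.7 and 105 CPM after 2 weeks. In control it was at 327 and 305 CPM (log2 fold change -4.50 ± 0.43, adjusted p = 0.000716 for recovered against control). Pnpla3, a lipid droplet hydrolase, fell to 0.159 and 0.15 CPM in the recovered libraries, against 4.86 and 3.51 CPM in the injured libraries (log2 fold change -4.72 ± 0.77, adjusted p = 0.00274), and Acss2, which makes acetyl-CoA from acetate, had 71.3 and 85 CPM in the recovered libraries, against 215 and 159 CPM in the injured libraries (log2 fold change -1.26 ± 0.22, adjusted p = 0.00408). The gene that rose was Lpin1, a phosphatidate phosphatase that also serves fasting lipid use, with 184 and 302 CPM in the recovered libraries, against 71.6 and 90.2 CPM in the injured libraries (log2 fold change 1.59 ± 0.41, adjusted p = 0.0246). Scd1, the abundant stearoyl-CoA desaturase, had 6743 and 8188 CPM in the recovered libraries, against 10207 and 6732 CPM in the injured libraries and did not pass the test (log2 fold change -0.18 ± 0.32, adjusted p = 0.728). In fatty acid oxidation 6 of 22 genes rose and 1 fell, with leave-out counts of 1, 3, 5 and 2 higher. Ppara, the receptor that switches these genes on, had 162 and 155 CPM in the recovered libraries, against 73.2 and 73 CPM in the injured libraries (log2 fold change 1.12 ± 0.17, adjusted p = 0.00181). Its groups were apart. Pdk4, a kinase that closes pyruvate dehydrogenase, had 22.3 and 31.8 CPM in the recovered libraries, against 199 and 57.3 CPM in the injured libraries (log2 fold change -2.24 ± 0.52, adjusted p = 0.0142). Lpin1 (adjusted p = 0.152) and Pdk4 (0.172) did not pass without injured replicate 1. Lpin1 (adjusted p = 0.0627) missed the threshold without injured replicate 2. Fasn (adjusted p = 0.0573), Thrsp (0.0672), Acss2 (0.0532) and Pdk4 (0.121) did not pass without recovered replicate 1. Lpin1 (adjusted p = 0.18) and Pdk4 (0.0723) missed the threshold without recovered replicate 2. Pdk4 (adjusted p = 0.0789) did not pass in a fit of the 4 libraries alone. Lpin1 (adjusted p = 0.0859) and Pdk4 (0.0866) missed the threshold without both libraries low in Malat1.

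Cell division genes were low again after 4 weeks. Of 35 members 25 were lower and 1 was higher, with a median log2 fold change of -2.37, and leave-out counts of 14, 17, 20 and 24 lower (median -2.39 without injured replicate 1). The list summed to 105 and 118 CPM in the recovered libraries, against 528 and 434 CPM in the injured libraries, while control had 168 and 200 CPM. Ccnd1, cyclin D1, which takes hepatocytes out of rest (GRCm38, chromosome 7, 144929931 to 144939869), had 11.3 and 14 CPM in the recovered libraries, against 171 and 122 CPM in the injured libraries, an 11.6-fold lower level (log2 fold change -3.53 ± 0.29, adjusted p = 0.000103). Its level lay below untreated control as well, at 26 and 25.9 CPM (log2 fold change -1.04 ± 0.27, adjusted p = 0.0267). Ccnb1, the mitotic cyclin B1, had 0.319 and 0.375 CPM in the recovered libraries, against 12.7 and 10 CPM in the injured libraries (log2 fold change -5.01 ± 0.60, adjusted p = 0.000536), and Cdc20, which ends metaphase, had 0.757 and 0.863 CPM in the recovered libraries, against 18.5 and 22.9 CPM in the injured libraries (log2 fold change -4.67 ± 0.64, adjusted p = 0.00111). Recovered values of both were under 1 CPM. Kif20a, a kinesin of cytokinesis, had 1.24 and 1.2 CPM in the recovered libraries, against 16.5 and 14.1 CPM in the injured libraries (log2 fold change -3.65 ± 0.45, adjusted p = 0.000619), and Plk1, a mitotic kinase, had 0.0398 and 0.375 CPM in the recovered libraries, against 7.12 and 6.04 CPM in the injured libraries (log2 fold change -4.94 ± 0.89, adjusted p = 0.00458). In these genes every recovered value was below every injured one. Mcm2, of the replication helicase, had 2.87 and 3.68 CPM in the recovered libraries, against 11.8 and 9.23 CPM in the injured libraries (log2 fold change -1.68 ± 0.26, adjusted p = 0.002), and Pcna, the sliding clamp, with 18.9 and 18.2 CPM in the recovered libraries, against 29.5 and 25.2 CPM in the injured libraries did not pass the test (log2 fold change -0.56 ± 0.21, adjusted p = 0.0955). Tk1, thymidine kinase, rose against the rest of the list, with 15.1 and 20 CPM in the recovered libraries, against 5.01 and 7.84 CPM in the injured libraries (log2 fold change 1.45 ± 0.31, adjusted p = 0.00939). Of the 35 genes 27 had a promoter in RefSeq, and the CHR element TTTGAA, on either strand, was found in 11 of them (40.7%), against 20.2% of all genes with a promoter. Tk1 (adjusted p = 0.0792) did not pass without injured replicate 1. Tk1 (adjusted p = 0.0801) missed the threshold without recovered replicate 2. The call against control was lost, at the adjusted p given, for Ccnd1 (0.0934) without control replicate 1, Ccnd1 (0.129) without recovered replicate 1 and Ccnd1 (0.115) without recovered replicate 2.

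Targets of p53, the factor that answers DNA damage, fell in 12 of 20 cases (median -1.09; leave-out counts 10, 10, 11 and 10). Eda2r, a death receptor, had 2.75 and 3.6 CPM in the recovered libraries, against 37.1 and 28.8 CPM in the injured libraries (log2 fold change -3.37 ± 0.27, adjusted p = 9.35e-05). Phlda3, an inhibitor of AKT, had 1.67 and 1.65 CPM in the recovered libraries, against 17.2 and 26.2 CPM in the injured libraries (log2 fold change -3.70 ± 0.35, adjusted p = 0.000191), and Ccng1, cyclin G1, had 34.5 and 33.9 CPM in the recovered libraries, against 135 and 136 CPM in the injured libraries (log2 fold change -1.98 ± 0.18, adjusted p = 0.000153). The groups of these 3 genes lay well apart. Cdkn1a, the cell cycle inhibitor p21, had 51.2 and 63.8 CPM in the recovered libraries, against 124 and 134 CPM in the injured libraries (log2 fold change -1.16 ± 0.27, adjusted p = 0.0159). It was at 21.4 and 21.1 CPM after 2 weeks, against which the 4-week level did not pass the test (log2 fold change 1.44 ± 0.28, adjusted p = 0.0656). Control was at 27.8 and 18.2 CPM, and the 4-week level was above it (log2 fold change 1.32 ± 0.28, adjusted p = 0.0155). Cdkn1a (adjusted p = 0.059) did not pass without injured replicate 1. Cdkn1a (adjusted p = 0.0502) missed the threshold without injured replicate 2. Cdkn1a (adjusted p = 0.13) did not pass without recovered replicate 1. Cdkn1a (adjusted p = 0.0644) missed the threshold without recovered replicate 2. The call against control was lost, at the adjusted p given, for Cdkn1a (0.0603) without recovered replicate 1 and Cdkn1a (0.115) without recovered replicate 2.

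NRF2 switches on genes against electrophiles and oxidants, and its targets fell in 20 of 25 cases (median -1.28), with 1 rise and leave-out counts of 12, 12, 13 and 20 lower. Gsta1, a glutathione transferase, had 17.2 and 16 CPM in the recovered libraries, against 465 and 400 CPM in the injured libraries, a 26.1-fold lower level (log2 fold change -4.71 ± 0.52, adjusted p = 0.00036). Srxn1, sulfiredoxin, had 33.9 and 27.5 CPM in the recovered libraries, against 208 and 169 CPM in the injured libraries (log2 fold change -2.62 ± 0.23, adjusted p = 0.000118), and Nqo1, the quinone reductase, had 5.42 and 7.28 CPM in the recovered libraries, against 33.6 and 20.7 CPM in the injured libraries (log2 fold change -2.09 ± 0.38, adjusted p = 0.00441). Slc7a11, the cystine carrier, fell to 0.359 and 0.563 CPM in the recovered libraries, against 22.8 and 26.7 CPM in the injured libraries (log2 fold change -5.73 ± 0.94, adjusted p = 0.00279). Every recovered value of these genes was below every injured value. The pentose phosphate enzymes went the same way: Pgd, phosphogluconate dehydrogenase (GRCm38, chromosome 4, 149149991 to 149166707), had 23.5 and 25.3 CPM in the recovered libraries, against 175 and 157 CPM in the injured libraries (log2 fold change -2.77 ± 0.19, adjusted p = 5.99e-05). G6pdx, the enzyme before it, had 4.98 and 4.61 CPM in the recovered libraries, against 40.7 and 34.9 CPM in the injured libraries (log2 fold change -2.98 ± 0.35, adjusted p = 0.000471). Nfe2l2, which encodes NRF2, had 59.8 and 66.5 CPM in the recovered libraries, against 200 and 160 CPM in the injured libraries (log2 fold change -1.51 ± 0.15, adjusted p = 0.000191). The gene that rose was Abcc3, an exporter of conjugates, with 452 and 528 CPM in the recovered libraries, against 264 and 216 CPM in the injured libraries (log2 fold change 1.03 ± 0.20, adjusted p = 0.0071). Cbr3, a carbonyl reductase, had 1.75 and 3.04 CPM in the recovered libraries, against 64.5 and 56.8 CPM in the injured libraries and was among the 15 largest falls (log2 fold change -4.66 ± 0.71, adjusted p = 0.00186). Reads of the near-identical Gsta and Gstm genes are divided by estimation, so their single values are uncertain. The antioxidant element TGACNNNGC was found in the promoters of 9 of 20 matched members (45%), against 14% of all genes with a promoter. Abcc3 (adjusted p = 0.0502) did not pass without injured replicate 2. Nqo1 (adjusted p = 0.0542) missed the threshold without recovered replicate 1. Abcc3 (adjusted p = 0.0643) did not pass without recovered replicate 2.

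Oncofetal genes, which the adult liver expresses during regeneration and in tumours, fell in 5 of 12 tested cases with a median of -2.65 and leave-out counts of 5, 5, 5 and 7. Afp, alpha-fetoprotein (GRCm38, chromosome 5, 90490737 to 90508907), fell to 0.359 and 0.6 CPM in the recovered libraries, against 35 and 34.1 CPM in the injured libraries (log2 fold change -6.15 ± 0.50, adjusted p = 9.35e-05). Gpc3, a membrane proteoglycan, had 2.19 and 2.14 CPM in the recovered libraries, against 15.2 and 29.2 CPM in the injured libraries (log2 fold change -3.35 ± 0.49, adjusted p = 0.00161), and Golm1, a Golgi protein, had 6.02 and 6.53 CPM in the recovered libraries, against 28.8 and 22.2 CPM in the injured libraries (log2 fold change -2.02 ± 0.22, adjusted p = 0.000332). Scd2, a desaturase that is low in adult hepatocytes, had 11.9 and 17.1 CPM in the recovered libraries, against 475 and 285 CPM in the injured libraries (log2 fold change -4.71 ± 0.47, adjusted p = 0.000216). The 2 groups were apart in all 4 genes. Igf2 and H19, a growth factor and the long RNA beside it, stayed under 2 CPM in all 4 libraries and did not pass the test. Cyp1a1, the cytochrome induced through the AHR, fell to 0.876 and 1.13 CPM in the recovered libraries, against 23.1 and 38.4 CPM in the injured libraries (log2 fold change -4.93 ± 0.49, adjusted p = 0.000197).

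**Figure D3:**
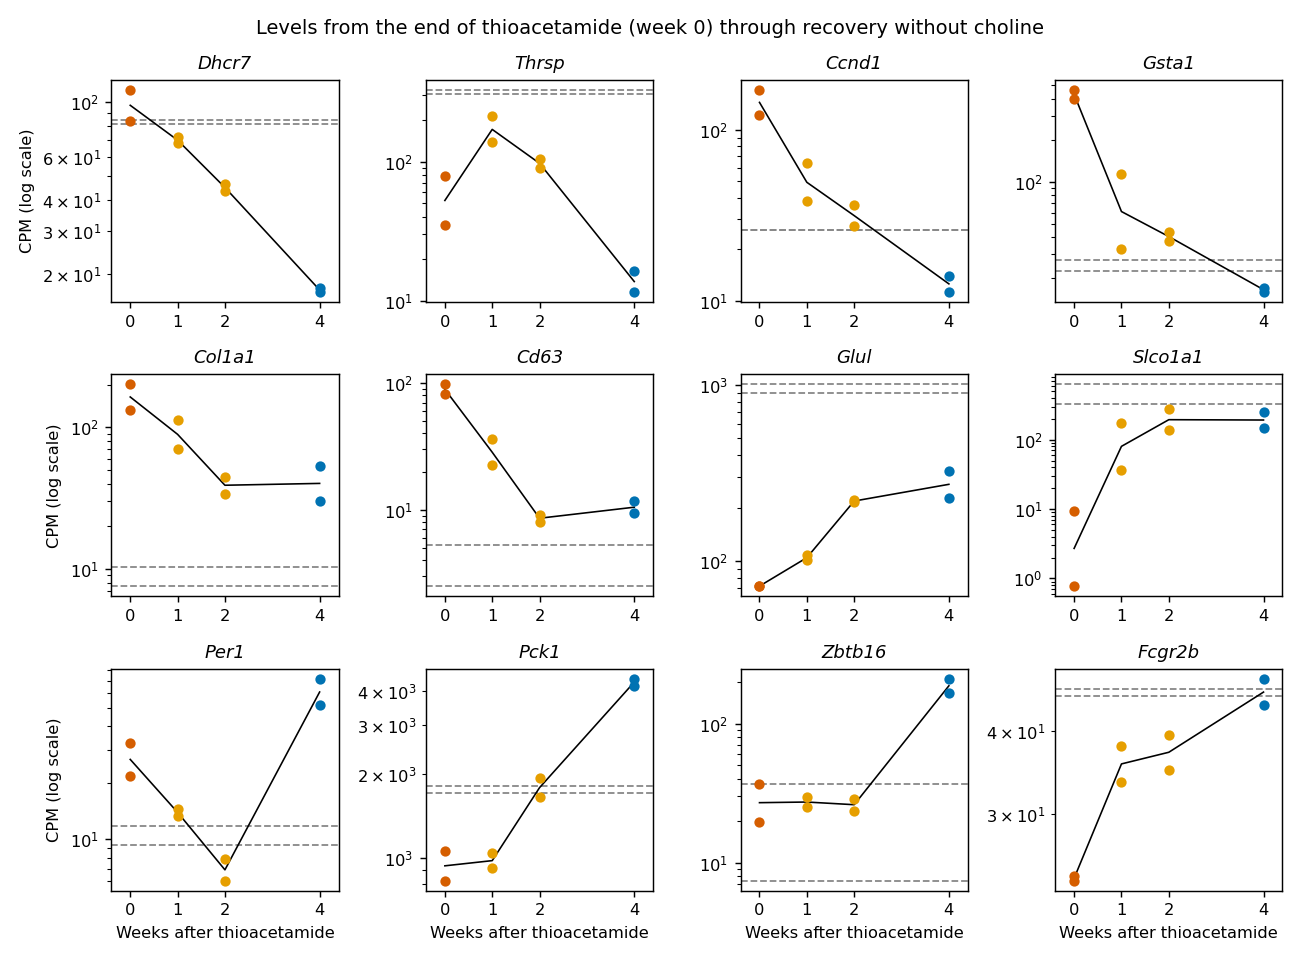
Level of 12 genes in CPM (y axes, log scale) at the end of thioacetamide (week 0, orange), after 1 and 2 weeks (light orange) and after 4 weeks of recovery without choline (blue); axes of the 12 panels differ, points are single libraries, black lines join their geometric means and dashed lines are the 2 untreated control libraries. Dhcr7 falls at every step to 17.6 and 17 CPM, Col1a1 levels off after 2 weeks above control, Glul rises to 229 and 324 CPM and stays below control, and Per1, Pck1 and Zbtb16 are highest at 4 weeks.

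Scar matrix was only partly lower after 4 weeks. Of 30 matrix genes 6 fell, with a median log2 fold change of -0.38. The leave-out counts were 1, 4, 2 and 7, and the median was -0.05 without injured replicate 1. Col1a1, the main chain of fibrillar collagen (GRCm38, chromosome 11, 94936224 to 94953042), had 30.2 and 53.3 CPM in the recovered libraries, against 201 and 133 CPM in the injured libraries (log2 fold change -2.00 ± 0.46, adjusted p = 0.0145). Its recovered libraries stood below the injured ones and above control, which was at 7.54 and 10.3 CPM (log2 fold change 2.22 ± 0.48, adjusted p = 0.0161). Col3a1, a second fibrillar collagen, had 49.3 and 73.8 CPM in the recovered libraries, against 272 and 171 CPM in the injured libraries (log2 fold change -1.85 ± 0.39, adjusted p = 0.00907), and Col5a2, a chain that regulates fibril width, had 5.94 and 7.65 CPM in the recovered libraries, against 20.6 and 18.5 CPM in the injured libraries (log2 fold change -1.52 ± 0.23, adjusted p = 0.00173). The groups were apart in both. Vcan, the proteoglycan versican, fell to 0.239 and 0.525 CPM in the recovered libraries, against 3.8 and 2.78 CPM in the injured libraries (log2 fold change -3.09 ± 0.60, adjusted p = 0.00636). Nid1, nidogen of the basement membrane, fell with 32.8 and 47.3 CPM in the recovered libraries, against 157 and 113 CPM in the injured libraries (log2 fold change -1.75 ± 0.26, adjusted p = 0.00159). Vcan and Nid1 had no overlap between the groups. Other matrix genes did not pass: Col6a3, a microfibril collagen, had 40.2 and 83.1 CPM in the recovered libraries, against 93.4 and 65.9 CPM in the injured libraries (log2 fold change -0.37 ± 0.50, adjusted p = 0.648), and Lox, which crosslinks collagen, had 1.24 and 1.84 CPM in the recovered libraries, against 5.45 and 2.91 CPM in the injured libraries (log2 fold change -1.44 ± 0.54, adjusted p = 0.0959). Recovered replicate 2 was above recovered replicate 1 in Col1a1, Col3a1 and Col6a3. Col1a1 (adjusted p = 0.0957) and Col3a1 (0.0727) did not pass without injured replicate 1. Col1a1 (adjusted p = 0.13), Col3a1 (0.0932) and Vcan (0.0733) missed the threshold without recovered replicate 1. Col1a1 (adjusted p = 0.101) and Col3a1 (0.0586) did not pass without both libraries low in Malat1.

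Against untreated liver 11 of 30 matrix genes were higher (median 0.88), where 7.33% of all tested genes were called higher. The count rests on single libraries. It was 1 without both libraries low in Malat1 (median 1.05) and 3 without recovered replicate 1 (median 1.11). By edgeR's test it was 0 without control replicate 1 (median 1.04, 11 genes higher at an unadjusted p under 0.05) and 0 without recovered replicate 2 (median 0.62, 7 genes at an unadjusted p under 0.05), while DESeq2 on all libraries called 13. Col6a3 had 40.2 and 83.1 CPM in the recovered libraries, against 9.28 and 12.9 CPM in control (log2 fold change 2.47 ± 0.54, adjusted p = 0.0166). Lamc3, a laminin chain, had 19 and 42.1 CPM in the recovered libraries, against 1.74 and 3.7 CPM in control (log2 fold change 3.47 ± 0.70, adjusted p = 0.0138), and Mmp7, a protease made by bile duct cells, had 4.86 and 10.4 CPM, against 0.0914 and 0.0342 CPM in control (log2 fold change 6.90 ± 1.39, adjusted p = 0.0137). Both were higher in recovered replicate 2 than in recovered replicate 1. Pdgfrl, a PDGF receptor-like protein, was higher in the recovered libraries than in both other groups, with 6.53 and 11.4 CPM in the recovered libraries, against 0.797 and 1.3 CPM in the injured libraries (log2 fold change 3.11 ± 0.47, adjusted p = 0.00181) and 0.457 and 0.616 CPM in control (log2 fold change 4.04 ± 0.51, adjusted p = 0.00285). Calls against control that were lost, with their adjusted p, were Col1a1 (0.134), Col6a3 (0.145), Lamc3 (0.126) and Mmp7 (0.104) without control replicate 1, Col1a1 (0.0579), Col6a3 (0.0554) and Mmp7 (0.0568) without recovered replicate 1 and Col1a1 (0.118), Col6a3 (0.126), Lamc3 (0.106) and Mmp7 (0.0898) without recovered replicate 2.

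Among the cells that make or accompany scar, 6 of 22 stellate and myofibroblast genes fell (median -0.49; leave-out counts 2, 1, 2 and 6). Acta2, smooth muscle actin of myofibroblasts, had 1.75 and 1.13 CPM in the recovered libraries, against 3.91 and 6.16 CPM in the injured libraries (log2 fold change -1.80 ± 0.54, adjusted p = 0.0445), and Pdgfa, a growth factor for these cells, had 5.14 and 4.16 CPM in the recovered libraries, against 11.1 and 12.5 CPM in the injured libraries (log2 fold change -1.34 ± 0.24, adjusted p = 0.0043). Recovered libraries were lower in both. Pdgfra and Pdgfrb, receptors that mark fibroblasts and stellate cells, did not pass (log2 fold change 0.11 ± 0.41, adjusted p = 0.873 for Pdgfrb, with 17.2 and 30.5 CPM in the recovered libraries, against 27.6 and 16.5 CPM in the injured libraries). Of macrophage genes of monocyte origin 4 of 15 fell, with leave-out counts of 1, 1, 1 and 4. Cd63, a lysosomal membrane protein that hepatocytes can also express, had 9.4 and 11.7 CPM in the recovered libraries, against 97.5 and 81.1 CPM in the injured libraries (log2 fold change -3.08 ± 0.49, adjusted p = 0.00221). Trem2, a receptor of scar-associated macrophages, had 1.2 and 2.18 CPM in the recovered libraries, against 2.18 and 3.22 CPM in the injured libraries (log2 fold change -0.68 ± 0.47, adjusted p = 0.351), and its groups met. Among Kupffer cell genes 1 of 14 fell, a share near the 8.39% of all tested genes called lower. It was Id3, a transcription regulator, with 28.1 and 30.9 CPM in the recovered libraries, against 73.7 and 70 CPM in the injured libraries (log2 fold change -1.28 ± 0.25, adjusted p = 0.0063). Summed lymphocyte genes were low in all 4 libraries, 12.4 and 12.5 CPM in the recovered libraries, against 11.6 and 13.6 CPM in the injured libraries. Acta2 (adjusted p = 0.0703) did not pass without injured replicate 1. Acta2 (adjusted p = 0.13) missed the threshold without injured replicate 2. Acta2 (adjusted p = 0.119) and Id3 (0.0639) did not pass without recovered replicate 1. Acta2 (adjusted p = 0.244) and Pdgfa (0.0529) missed the threshold without recovered replicate 2. Acta2 (adjusted p = 0.0524) did not pass in a fit of the 4 libraries alone.

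Between recovered and injured liver, bile duct markers differed mainly by injured replicate 1. Of 17 tested genes 1 fell, where 8.39% of all tested genes were called lower. It was Cldn4, a tight junction protein, with 0.598 and 1.05 CPM in the recovered libraries, against 5.27 and 2.78 CPM in the injured libraries (log2 fold change -2.28 ± 0.57, adjusted p = 0.0207). The list median of -1.14 became -0.15 without injured replicate 1. Against control the list median was 1.70, and 1.57 without both libraries low in Malat1. There 3 of 17 tested genes were called higher, where 7.33% of all tested genes were. The list summed to 205 and 316 CPM in the recovered libraries, against 119 and 128 CPM in control. Krt19, the keratin of duct cells, had 3.07 and 5.03 CPM in the recovered libraries, against 13.1 and 4.55 CPM in the injured libraries (log2 fold change -1.12 ± 0.51, adjusted p = 0.158), and Spp1, osteopontin, had 64.2 and 117 CPM in the recovered libraries, against 343 and 78.5 CPM in the injured libraries (log2 fold change -1.21 ± 0.66, adjusted p = 0.234). In both genes injured replicate 2 lay within or close to the recovered range and injured replicate 1 above it. Of the injured libraries, replicate 1 was higher than replicate 2 in the summed duct list, at 635 and 221 CPM, and in the matrix list, at 3219 and 2282 CPM. The part of duct cells in the matrix result was not tested. In the plot of summed lists the matrix sums of the recovered libraries, 2721 and 2684 CPM, fall between the injured values. Cldn4 (adjusted p = 0.135) did not pass without injured replicate 1. Cldn4 (adjusted p = 0.16) missed the threshold without recovered replicate 1. Cldn4 (adjusted p = 0.0776) did not pass without recovered replicate 2. Cldn4 (adjusted p = 0.0531) missed the threshold in a fit of the 4 libraries alone.

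**Figure D4:**
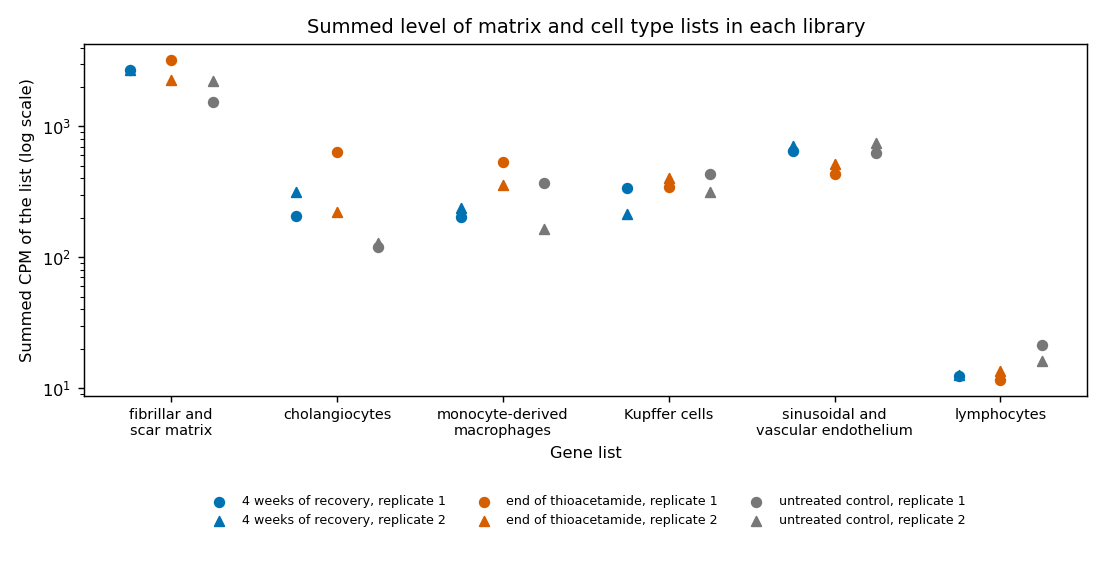
Summed CPM (y axis, log scale) of 6 gene lists (x axis) in each library after 4 weeks of recovery (blue), at the end of thioacetamide (orange) and in untreated control (grey), with replicate 1 as circles and replicate 2 as triangles. The recovered matrix sums lie between the 2 injured ones, the injured bile duct sums are far apart (635 and 221), and the endothelial sums of both recovered libraries (649 and 712) lie above both injured ones (434 and 514).

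Endothelial genes were higher. Of 20 genes of sinusoidal and vascular endothelium 10 rose, with a median log2 fold change of 0.57. The leave-out counts were 3, 2, 3 and 7, and the median was 0.39 without injured replicate 1. Fcgr2b, an Fc receptor of sinusoidal cells that clears immune complexes (GRCm38, chromosome 1, 170958617 to 170976127), had 43.6 and 47.8 CPM in the recovered libraries, against 23.9 and 24.3 CPM in the injured libraries (log2 fold change 0.93 ± 0.13, adjusted p = 0.00119). Oit3, a secreted protein of the same cells, had 28.4 and 30.8 CPM in the recovered libraries, against 18.7 and 17.8 CPM in the injured libraries (log2 fold change 0.70 ± 0.13, adjusted p = 0.0051), and Gpr182, a chemokine scavenger, had 31 and 31.2 CPM in the recovered libraries, against 20.4 and 19.1 CPM in the injured libraries (log2 fold change 0.66 ± 0.13, adjusted p = 0.00807). Replicates were close in these genes, and Fcgr2b in control was at 45.1 and 46.2 CPM (log2 fold change 0.00 ± 0.13, adjusted p = 0.991 for recovered against control). Flt4, a receptor for VEGF-C, had 50.7 and 57.6 CPM in the recovered libraries, against 28.6 and 30.3 CPM in the injured libraries (log2 fold change 0.88 ± 0.18, adjusted p = 0.00912). Plvap, which marks capillary-like endothelium, had 23.8 and 24.5 CPM in the recovered libraries, against 28.8 and 38.2 CPM in the injured libraries and did not pass (log2 fold change -0.47 ± 0.17, adjusted p = 0.0911), and Wnt2, the Wnt ligand of central vein endothelium, had 3.11 and 3.45 CPM in the recovered libraries, against 0.951 and 2.72 CPM in the injured libraries (log2 fold change 0.85 ± 0.41, adjusted p = 0.182). Flt4 (adjusted p = 0.0673) did not pass without injured replicate 1. Gpr182 (adjusted p = 0.0524) missed the threshold without recovered replicate 1. Gpr182 (adjusted p = 0.0576) and Flt4 (0.0768) did not pass without recovered replicate 2.

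Genes of the hepatocytes around the central vein, the zone that thioacetamide strikes, rose in 8 of 22 cases and fell in 2 (median 0.50). The leave-out counts were 7, 6, 6 and 7 higher, and 1, 2, 1 and 2 lower. Slc1a2, the glutamate carrier of the pericentral layer (GRCm38, chromosome 2, 102658659 to 102790784), had 74.1 and 122 CPM in the recovered libraries, against 0.334 and 0.284 CPM in the injured libraries (log2 fold change 8.28 ± 0.65, adjusted p = 9.35e-05). Glul, glutamine synthetase, had 229 and 324 CPM in the recovered libraries, against 72.2 and 71.9 CPM in the injured libraries (log2 fold change 1.94 ± 0.18, adjusted p = 0.000191), and Oat, ornithine aminotransferase, had 195 and 228 CPM in the recovered libraries, against 17 and 19.9 CPM in the injured libraries (log2 fold change 3.52 ± 0.53, adjusted p = 0.00177). Both injured libraries were far below both recovered ones in these 3 genes. Control was higher still, with 1007 and 898 CPM of Glul (log2 fold change -1.78 ± 0.18, adjusted p = 0.000977 for recovered against control) and 993 and 713 CPM of Oat (log2 fold change -2.01 ± 0.50, adjusted p = 0.0226). Slc1a2 did not differ from control by the test, with 147 and 174 CPM (log2 fold change -0.71 ± 0.44, adjusted p = 0.245). Cyp2e1, the cytochrome that activates thioacetamide, had 3572 and 3716 CPM in the recovered libraries, against 825 and 650 CPM in the injured libraries (log2 fold change 2.30 ± 0.27, adjusted p = 0.000482), and Cyp2c37, of the same zone, had 135 and 141 CPM in the recovered libraries, against 31 and 20.3 CPM in the injured libraries (log2 fold change 2.42 ± 0.30, adjusted p = 0.000681). Cyp1a2 had 348 and 410 CPM in the recovered libraries, against 300 and 292 CPM in the injured libraries and did not pass (log2 fold change 0.36 ± 0.16, adjusted p = 0.164). The Wnt target Axin2, with 14.3 and 14.7 CPM in the recovered libraries, against 15.4 and 19.8 CPM in the injured libraries, did not pass either (log2 fold change -0.28 ± 0.28, adjusted p = 0.507). Those that fell included Slc1a4, a neutral amino acid carrier, with 2.19 and 3.34 CPM in the recovered libraries, against 12 and 11.5 CPM in the injured libraries (log2 fold change -2.08 ± 0.25, adjusted p = 0.000538). Calls against control that were lost, with their adjusted p, were Oat (0.139) without control replicate 1, Oat (0.104) without recovered replicate 1 and Oat (0.129) without recovered replicate 2.

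Periportal genes rose in 6 of 20 cases (median 0.78; leave-out counts 4, 2, 1 and 3). Pck1, the gatekeeper of gluconeogenesis (GRCm38, chromosome 2, 173153048 to 173159273), had 4169 and 4413 CPM in the recovered libraries, against 1056 and 825 CPM in the injured libraries (log2 fold change 2.19 ± 0.18, adjusted p = 9.35e-05) and was the one that kept its call without injured replicate 1. Slc7a2, an arginine carrier, had 1080 and 1308 CPM in the recovered libraries, against 479 and 423 CPM in the injured libraries (log2 fold change 1.41 ± 0.30, adjusted p = 0.00983), G6pc, glucose-6-phosphatase, had 515 and 641 CPM in the recovered libraries, against 283 and 293 CPM in the injured libraries (log2 fold change 1.01 ± 0.23, adjusted p = 0.0127), and Hpd, of tyrosine breakdown, had 900 and 1146 CPM in the recovered libraries, against 380 and 328 CPM in the injured libraries (log2 fold change 1.53 ± 0.35, adjusted p = 0.0136). The groups of all 4 were apart. Among the urea cycle enzymes that did not pass, Cps1, which makes carbamoyl phosphate, had 4699 and 4921 CPM in the recovered libraries, against 3860 and 3569 CPM in the injured libraries (log2 fold change 0.37 ± 0.22, adjusted p = 0.28). Slc7a2 (adjusted p = 0.0513), G6pc (0.0783) and Hpd (0.059) did not pass without injured replicate 1. Slc7a2 (adjusted p = 0.0552), G6pc (0.0502) and Hpd (0.0626) missed the threshold without injured replicate 2. Slc7a2 (adjusted p = 0.0755), G6pc (0.109) and Hpd (0.0938) did not pass without recovered replicate 2.

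Bile acid uptake and export genes rose in 6 of 13 tested cases, with leave-out counts of 5, 6, 6 and 5. Slc10a1, the sodium-driven bile acid carrier NTCP, had 226 and 197 CPM in the recovered libraries, against 91.2 and 69.3 CPM in the injured libraries (log2 fold change 1.40 ± 0.20, adjusted p = 0.00123). Slco1b2, an organic anion carrier, had 809 and 763 CPM in the recovered libraries, against 346 and 242 CPM in the injured libraries (log2 fold change 1.42 ± 0.27, adjusted p = 0.00572), and Abcb11, the bile salt export pump, had 553 and 507 CPM in the recovered libraries, against 349 and 283 CPM in the injured libraries (log2 fold change 0.75 ± 0.16, adjusted p = 0.00963). Every recovered value was above every injured value. Of the enzymes that make bile acids 6 of 17 rose and 1 fell, with leave-out counts of 3, 4, 4 and 5 higher. Slc27a2, which activates bile acid precursors, had 1168 and 1079 CPM in the recovered libraries, against 477 and 399 CPM in the injured libraries (log2 fold change 1.36 ± 0.20, adjusted p = 0.00161), and Cyp27a1, of the acidic route, had 310 and 297 CPM in the recovered libraries, against 174 and 176 CPM in the injured libraries (log2 fold change 0.80 ± 0.15, adjusted p = 0.00487). The one that fell was Cyp7a1, the rate-limiting enzyme of bile acid synthesis, with 17.7 and 22.5 CPM in the recovered libraries, against 80.6 and 98.9 CPM in the injured libraries (log2 fold change -2.16 ± 0.43, adjusted p = 0.00711), below control too at 84.7 and 124 CPM (log2 fold change -2.38 ± 0.43, adjusted p = 0.0109). Nr0b2, the repressor SHP that acts on Cyp7a1, rose, with 43.3 and 54.6 CPM in the recovered libraries, against 8.28 and 22.8 CPM in the injured libraries (log2 fold change 1.66 ± 0.45, adjusted p = 0.0288), and Cyp8b1, which makes cholic acid, had 139 and 146 CPM in the recovered libraries, against 41.9 and 62.2 CPM in the injured libraries and did not pass (log2 fold change 1.46 ± 0.49, adjusted p = 0.0662). The call against control was lost, at the adjusted p given, for Cyp7a1 (0.0671) without recovered replicate 1 and Cyp7a1 (0.0811) without recovered replicate 2. Nr0b2 (adjusted p = 0.156) did not pass without injured replicate 1. Abcb11 (adjusted p = 0.0569) missed the threshold without injured replicate 2. Abcb11 (adjusted p = 0.0764), Cyp7a1 (0.0736) and Nr0b2 (0.0759) did not pass without recovered replicate 1. Nr0b2 (adjusted p = 0.143) missed the threshold without recovered replicate 2. Abcb11 (adjusted p = 0.057) and Nr0b2 (0.0879) did not pass in a fit of the 4 libraries alone. Nr0b2 (adjusted p = 0.15) missed the threshold without both libraries low in Malat1.

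Genes with a male bias in liver, which depend on pulsed growth hormone, rose in 14 of 21 cases with a median log2 fold change of 2.43 and leave-out counts of 5, 10, 4 and 9 (median 2.13 without injured replicate 1). Slco1a1, an organic anion carrier (GRCm38, chromosome 6, 141907853 to 141946962), had 249 and 148 CPM in the recovered libraries, against 0.771 and 9.51 CPM in the injured libraries (log2 fold change 5.28 ± 1.02, adjusted p = 0.00623). Cyp4a12a, an arachidonate hydroxylase, had 518 and 304 CPM in the recovered libraries, against 85.7 and 56.3 CPM in the injured libraries (log2 fold change 2.53 ± 0.39, adjusted p = 0.00197), and C8a, a complement chain, had 788 and 546 CPM in the recovered libraries, against 192 and 215 CPM in the injured libraries (log2 fold change 1.71 ± 0.24, adjusted p = 0.00128). Elovl3, a fatty acid elongase, had 176 and 175 CPM in the recovered libraries, against 2.47 and 25.7 CPM in the injured libraries (log2 fold change 3.65 ± 1.13, adjusted p = 0.0496). In Slco1a1 and Elovl3 the injured libraries lay far from each other, and both stayed below both recovered values. Major urinary protein genes were 8 of the 15 largest rises, and several stayed far below control. Mup17 had 17.1 and 16.1 CPM in the recovered libraries, against 0.617 and 1.74 CPM in the injured libraries (log2 fold change 3.84 ± 0.53, adjusted p = 0.00118) and 951 and 362 CPM in control (log2 fold change -5.30 ± 0.52, adjusted p = 0.000821). Mup19 had 3.94 and 9.19 CPM in the recovered libraries, against 2579 and 1153 CPM in control (log2 fold change -8.15 ± 0.60, adjusted p = 0.000123). Hsd3b5, a steroid dehydrogenase, had 17.3 and 6.34 CPM in the recovered libraries, against 0.129 and 0.411 CPM in the injured libraries (log2 fold change 5.49 ± 1.36, adjusted p = 0.0202) and 360 and 181 CPM in control (log2 fold change -4.52 ± 1.09, adjusted p = 0.0212). Reads of the near-identical Mup genes are divided by estimation, so single values of that family are uncertain. Elovl3 (adjusted p = 0.202), Hsd3b5 (0.141), Mup1 (0.165), Mup8 (0.153), Mup11 (0.0612) and Mup12 (0.207) did not pass without injured replicate 1. Hsd3b5 (adjusted p = 0.0625), Mup8 (0.0932) and Mup12 (0.0515) missed the threshold without injured replicate 2. Elovl3 (adjusted p = 0.129), Hsd3b5 (0.101), Mup1 (0.113), Mup8 (0.13) and Mup12 (0.174) did not pass without recovered replicate 1. Elovl3 (adjusted p = 0.136), Mup1 (0.0625), Mup8 (0.0647) and Mup12 (0.0658) missed the threshold without recovered replicate 2. Slco1a1 (adjusted p = 0.052), Elovl3 (0.0898) and Mup12 (0.0513) did not pass in a fit of the 4 libraries alone. Elovl3 (adjusted p = 0.235), Hsd3b5 (0.234), Mup1 (0.179), Mup8 (0.0847), Mup11 (0.0575) and Mup12 (0.207) missed the threshold without both libraries low in Malat1. Calls against control that were lost, with their adjusted p, were Hsd3b5 (0.126) without control replicate 1, Hsd3b5 (0.0771) without recovered replicate 1 and Hsd3b5 (0.156) without recovered replicate 2.

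Female-biased genes fell in 5 of 19 tested cases, with leave-out counts of 4, 3, 5 and 5. Cyp2a4, a testosterone hydroxylase, had 24.8 and 47.7 CPM in the recovered libraries, against 1589 and 1666 CPM in the injured libraries, a 44.9-fold lower level (log2 fold change -5.49 ± 0.79, adjusted p = 0.00147), and control had 0.32 and 1.3 CPM (log2 fold change 5.41 ± 0.86, adjusted p = 0.00704 against control). Cyp3a41a had 0.876 and 1.35 CPM in the recovered libraries, against 30.4 and 32.5 CPM in the injured libraries (log2 fold change -4.81 ± 0.47, adjusted p = 0.000191). Slc22a27, an organic anion carrier, had 0.199 and 0.113 CPM in the recovered libraries, against 16.1 and 4.52 CPM in the injured libraries (log2 fold change -6.02 ± 0.93, adjusted p = 0.00197). The groups were apart in all 3, and the recovered level of Cyp2a4 lay between those of control and injury. Cyp2a and Cyp3a genes have near-identical copies, and their single values are uncertain. Of the growth hormone axis 4 of 14 genes rose, with leave-out counts of 1, 2, 2 and 1, among them Ghr, the receptor, with 363 and 361 CPM in the recovered libraries, against 187 and 154 CPM in the injured libraries (log2 fold change 1.09 ± 0.20, adjusted p = 0.00534), and Stat5b, its signal carrier, with 73.3 and 77.4 CPM in the recovered libraries, against 54.1 and 45.9 CPM in the injured libraries (log2 fold change 0.59 ± 0.14, adjusted p = 0.0138). Igf1 had 554 and 393 CPM in the recovered libraries, against 367 and 256 CPM in the injured libraries and did not pass (log2 fold change 0.60 ± 0.23, adjusted p = 0.099). Stat5b (adjusted p = 0.0814) did not pass without injured replicate 2. Stat5b (adjusted p = 0.0639) missed the threshold without recovered replicate 1. Stat5b (adjusted p = 0.101) did not pass without recovered replicate 2. Stat5b (adjusted p = 0.0672) missed the threshold in a fit of the 4 libraries alone. Stat5b (0.0674) did not pass without the filter on low counts. The call against control was lost, at the adjusted p given, for Cyp2a4 (0.0674) without control replicate 1.

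Between 2 and 4 weeks of recovery few genes changed by the test: 46 were called (0.266% of those tested), 23 higher (0.133%) and 23 lower (0.133%). The calls rest on few libraries: without recovered replicate 1, 5 genes were called, 4 of them among the 46, and without recovered replicate 2 there was 1, Per1. Leaving out replicate 1 or 2 of the 2-week libraries left 2 and 3 calls. Of the genes named below, Per1 kept its call in all 4 of these fits, while Osgin1 kept its call without recovered replicate 1. A fit of the 4 libraries alone called 593, including 43 of the 46, and DESeq2 called 249, including all 46. This comparison shares the recovered libraries with the one above.

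Of 15 genes known to be induced by glucocorticoids 3 were called higher (median log2 fold change 1.32, against 0.02 for all tested genes). Per1, a clock gene that glucocorticoids also induce (GRCm38, chromosome 11, 69098948 to 69109960), had 51.8 and 71.8 CPM in the recovered libraries, against 7.87 and 6.03 CPM after 2 weeks (log2 fold change 3.15 ± 0.28, adjusted p = 0.00203). Mt2, a metallothionein, had 28.2 and 10.7 CPM, against 1.7 and 0.635 CPM after 2 weeks (log2 fold change 4.06 ± 0.69, adjusted p = 0.0431), and Pck1 had 4169 and 4413 CPM, against 1928 and 1655 CPM after 2 weeks (log2 fold change 1.26 ± 0.17, adjusted p = 0.0213). All 3 were higher in both recovered libraries than in both libraries of 2 weeks. Zbtb16, a transcription factor induced by the glucocorticoid receptor, had 166 and 210 CPM, against 28.8 and 23.6 CPM after 2 weeks, and did not pass (log2 fold change 2.85 ± 0.55, adjusted p = 0.064). Mt2 missed the threshold in a fit of the 4 libraries alone and Pck1 did not.

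Against the end of thioacetamide 5 of these 15 genes were higher and 3 lower (median 1.14). The leave-out counts were 4, 2, 2 and 5 higher, and 1, 0 with 3 unadjusted, 0 with 2 unadjusted and 2 lower. Zbtb16 had 166 and 210 CPM in the recovered libraries, against 19.7 and 36.9 CPM in the injured libraries (log2 fold change 2.74 ± 0.54, adjusted p = 0.00711), Per1 had 51.8 and 71.8 CPM in the recovered libraries, against 21.9 and 32.5 CPM in the injured libraries (log2 fold change 1.18 ± 0.26, adjusted p = 0.0106), and Klf9, another direct target of the receptor, had 217 and 229 CPM in the recovered libraries, against 116 and 60.8 CPM in the injured libraries (log2 fold change 1.34 ± 0.27, adjusted p = 0.00767). Those 3 genes were higher in each recovered library than in each injured one. Of those that fell, Cdkn1a was given with the p53 targets. Lcn2, lipocalin 2, an acute phase protein, had 5.26 and 2.18 CPM in the recovered libraries, against 18.8 and 6.83 CPM in the injured libraries (log2 fold change -1.79 ± 0.48, adjusted p = 0.0278). Sult1e1, estrogen sulfotransferase, was called too, with 0.0398 and 0.0375 CPM in the recovered libraries, against 1.49 and 0.411 CPM in the injured libraries, which is 1 count in each recovered library. Against control 8 of 15 were higher (median 0.98), with 3, 4, 7 and 8 in fits without recovered replicate 1, recovered replicate 2, control replicate 1 and control replicate 2, among them Fkbp5, a chaperone of the receptor, with 54.7 and 60.2 CPM in the recovered libraries, against 8.87 and 22.3 CPM in control (log2 fold change 1.88 ± 0.35, adjusted p = 0.011). Over all tested genes 7.33% were called higher against control with all libraries, and that share too moved in the fits without 1 library. Choline-treated livers at 4 weeks, not compared here, had 33.4 and 37.2 CPM of Per1, 143 and 172 CPM of Zbtb16 and 1.34 and 1.58 CPM of Mt2. Of 18 circadian clock genes 6 were higher and 3 lower than in control, where 7.33% and 12.2% of all tested genes were. As above, such calls rest on 1 estimate of spread shared by all groups. The clock list median was 0.20 against control, 0.18 against the injured libraries and 0.27 against 2 weeks. The sources do not give the hour of sampling and the feeding state, which glucocorticoid-induced and clock genes follow, and their part in the result was not tested. Zbtb16 (adjusted p = 0.0706), Per1 (0.092), Lcn2 (0.303) and Sult1e1 (0.126) did not pass without injured replicate 1. Sult1e1 (adjusted p = 0.119) missed the threshold without recovered replicate 1. Per1 (adjusted p = 0.0997), Klf9 (0.0534), Lcn2 (0.198) and Sult1e1 (0.131) did not pass without recovered replicate 2. Per1 (adjusted p = 0.0501) and Klf9 (0.0551) missed the threshold in a fit of the 4 libraries alone. The call against control was lost, at the adjusted p given, for Fkbp5 (0.0587) without recovered replicate 1 and Fkbp5 (0.0817) without recovered replicate 2.

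**Figure D5:**
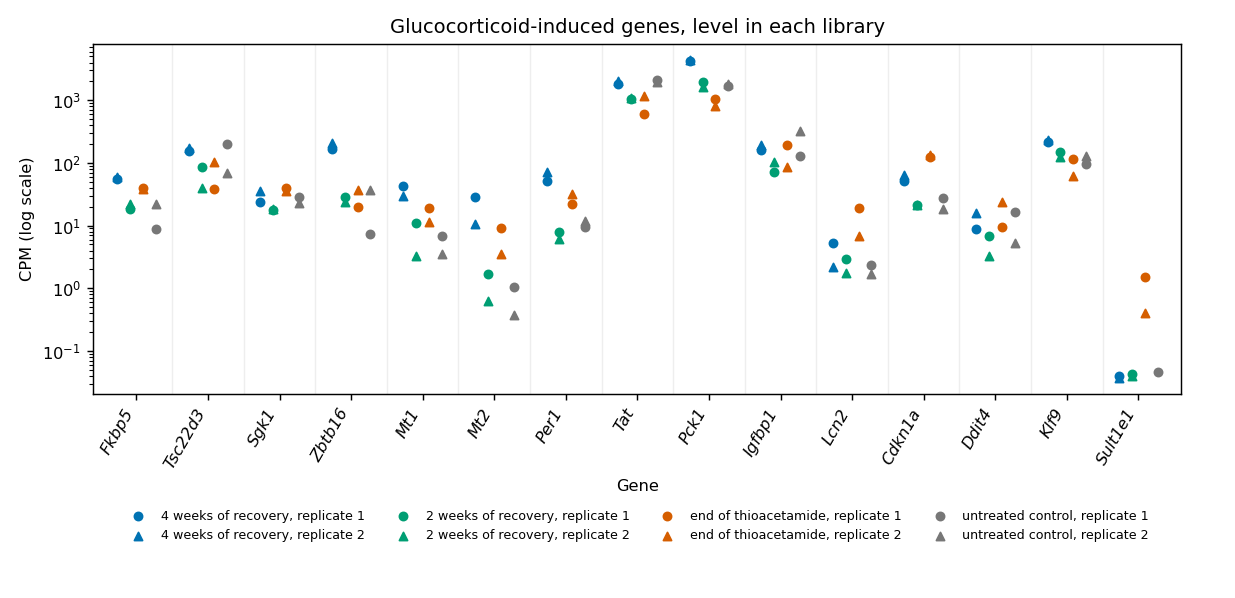
Level of 15 genes induced by glucocorticoids (x axis) in CPM (y axis, log scale) in each library after 4 weeks (blue) and 2 weeks of recovery (green), at the end of thioacetamide (orange) and in untreated control (grey), with replicate 1 as circles and replicate 2 as triangles; a library at 0 is not drawn. Fkbp5, Zbtb16, Mt1, Mt2, Per1, Pck1 and Klf9 are higher in both 4-week libraries than in every library of the other 3 groups, while Sult1e1 and Lcn2 are high at the end of thioacetamide.

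Further genes were higher at 4 than at 2 weeks. Il1r1, the interleukin 1 receptor, had 108 and 77 CPM in the recovered libraries, against 26.8 and 31 CPM after 2 weeks (log2 fold change 1.68 ± 0.22, adjusted p = 0.0213) and 22.4 and 21.6 CPM in the injured libraries (log2 fold change 2.07 ± 0.22, adjusted p = 0.000317). Pfkfb3, a regulator of glycolysis, had 30.8 and 28.8 CPM, against 9.27 and 11.3 CPM after 2 weeks (log2 fold change 1.54 ± 0.23, adjusted p = 0.0277) and 7.53 and 10.5 CPM in the injured libraries (log2 fold change 1.73 ± 0.23, adjusted p = 0.00109). Mfsd2a, a carrier of lysolipids that fasting induces, had 56.6 and 86.3 CPM, against 8.84 and 8.06 CPM after 2 weeks (log2 fold change 3.08 ± 0.43, adjusted p = 0.0213), while against 43.3 and 35.4 CPM in the injured libraries it did not pass (log2 fold change 0.86 ± 0.39, adjusted p = 0.162). All recovered values of the 3 genes were above those of 2 weeks.

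The 23 genes lower at 4 than at 2 weeks included several of lipid and sterol metabolism. Of fatty acid and triglyceride genes 2 of 22 were called lower, and of sterol uptake and regulation genes 2 of 19. Of cholesterol synthesis genes it was 1 of 20, Dhcr7, given above. Over all tested genes 0.133% were called lower. Thrsp had 11.6 and 16.3 CPM in the recovered libraries, against 89.7 and 105 CPM after 2 weeks (log2 fold change -2.80 ± 0.40, adjusted p = 0.0217). Osgin1, an NRF2 target, had 129 and 61.2 CPM, against 503 and 502 CPM after 2 weeks (log2 fold change -2.40 ± 0.34, adjusted p = 0.0217). Aqp8, a water channel of hepatocytes, had 20.2 and 27.2 CPM, against 59.3 and 82.9 CPM after 2 weeks (log2 fold change -1.59 ± 0.28, adjusted p = 0.0485). In each of these the recovered libraries lay below both of 2 weeks. Aqp8 was also lower than in the injured libraries (log2 fold change -1.68 ± 0.28, adjusted p = 0.00295).

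Against untreated liver the 4-week libraries differed in 3368 genes (19.5% of those tested), 1267 higher (7.33%) and 2101 lower (12.2%). That count depends on control replicate 1, the library lowest in Malat1: without it 940 genes were called, without control replicate 2 there were 9044, and without recovered replicate 1 or 2 there were 123 and 94. DESeq2 on all libraries called 4519. In fits without 1 library the counts of list members move with these counts over all genes. A high or low list count there says little about the list itself. Of 227 called genes that are in a list or named by rule, 88 kept their call without control replicate 1, 33 without recovered replicate 1 and 28 without recovered replicate 2. In fits without recovered replicate 1, recovered replicate 2, control replicate 1 and control replicate 2, in this order, the count of lower pericentral genes, 12 of 22 with all libraries, was 1, 2, 4 and 15, and 5 without both libraries low in Malat1. For one-carbon genes, 7 of 24 with all libraries, it was 0 with 8 unadjusted, 0 with 10 unadjusted, 4 and 13, and 5 without both libraries low in Malat1. Pemt, which makes phosphatidylcholine by methylation, had 108 and 108 CPM in the recovered libraries, against 359 and 174 CPM in control (log2 fold change -1.31 ± 0.27, adjusted p = 0.0146), and 123 and 99.8 CPM in the injured libraries, against which the test was not passed (log2 fold change -0.05 ± 0.26, adjusted p = 0.921). The call against control was lost, at the adjusted p given, for Pemt (0.0717) without recovered replicate 1 and Pemt (0.108) without recovered replicate 2.

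Medians of some noncoding classes were smaller without injured replicate 1, and those of others were further from 0. Of 1015 tested genes of the class TEC, transcribed loci of uncertain status, 37 were higher (3.65%). Of 345 antisense genes 29 were higher (8.41%) and 3 lower (0.87%). Over all tested genes 6.47% were called higher and 8.39% lower. The median log2 fold change was 1.29 for TEC and 0.55 for antisense genes, and 0.59 and 0.24 without that library. For all tested genes it was 0.01, and 0.03 without that library. Small nuclear RNA (snRNA, 33 genes) and small nucleolar RNA (snoRNA, 89 genes) had medians of -1.06 and -0.56, and -1.95 and -1.18 without that library. The snRNA class held 0.0353% and 0.0377% of counts in the recovered libraries, against 0.0149% and 0.124% in the injured libraries. Injured replicate 2 was thus the highest of these 4 libraries in snRNA. Neat1, a nuclear RNA like Malat1, had 15216 and 13772 CPM in the recovered libraries, against 107 and 1962 CPM in the injured libraries and did not pass the test (log2 fold change 3.81 ± 1.54, adjusted p = 0.119), although both recovered values were above both injured ones. The sources do not give the strand setting of the counting, so antisense and overlapping genes are uncertain.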

How the data were processed

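RNA of whole mouse liver was extracted with TRIzol, depleted of ribosomal RNA and made into directional libraries, per the labels' protocols. The authors deposited expected counts per gene, estimated reads that are not normalised, with 8.66% of values fractional. Per the submitters' processing notes, STAR 2.7.10b, RSEM 1.3.3, DESeq2 1.36.0 and GRCm38 were used, with no roles given. The sources do not give the annotation release or the strand setting. The deposited TPM table was not used, nor were 2 columns of values that match no sample. Expected counts were rounded. All 16 libraries, 8 groups of 2 by their titles, entered 1 fit in edgeR 4.0.16 (R 4.3.3, limma 3.58.1) with filterByExpr, TMM scaling and a term per group (8 residual degrees of freedom), so that all groups share the estimate of spread. Tests were two-sided quasi-likelihood tests with Benjamini-Hochberg adjustment over all 17292 genes tested, called at 0.05. CPM are counts per 1000000 of the TMM-scaled library size, and each fold change is the fitted log2 value ± SE. Levels of different genes were not compared, since CPM does not account for length.

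The members and the 43 gene lists were chosen with earlier results of these data known. Named genes were the 15 largest changes in each direction among called genes whose groups do not overlap and whose higher group averages 5 CPM or more (8 for the other comparisons), leaving out predicted, clone-named and RIKEN loci, up to 4 called genes of smallest p per list, and genes fixed by name. Some genes that this rule takes are not reported here. Other list genes in the text, such as Hmgcs1, Oat, Tk1 and Fkbp5, were chosen after their values were seen. Totals of 23069491 to 33645258 counts per library set the precision. Alternatives were other scalings and filters, DESeq2 1.42.0, the 2 groups alone, a replicate block, and leaving out libraries. Promoters are RefSeq's, GRCm38.p6.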

Additional observations from a re-analysis of the deposited data

How the results depend on the processing

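The count of genes differing between recovered and injured liver, 2569, was 1574 in a fit of the 4 libraries alone, 4551 without both libraries low in Malat1 and 1452 at an absolute log2 fold change of at least 1. Leaving out 1 library gave 893 to 5559, furthest without recovered replicate 2 (893) or 1 (899), injured replicate 1 (1131), and control replicate 1 (5559) or 2 (5549). Against control, 3368 became 0 in the fit of 4 libraries (2033 at an unadjusted p under 0.05), 2107 without both libraries low in Malat1, 1853 at a log2 fold change of at least 1, and 94 to 9044 with 1 library left out, including 2216 without replicate 2 of 2 weeks with choline. Against 2 weeks, 46 became 249 with DESeq2, 456 with no filter on low counts, 593 with the 4 libraries alone, 637 without both libraries low in Malat1, and 1 to 288 with 1 library left out, furthest up without a control library (285 and 288). The causes were not tested. Of 166 named genes called between recovered and injured liver, calls lost numbered 60 without injured replicate 1, 27 without injured replicate 2, 63 and 55 without recovered replicate 1 and 2, 32 in the fit of 4 libraries, 17 without both libraries low in Malat1 and 2 with the size factors of DESeq2, and DESeq2 itself called all 166. In these settings no named call changed direction. The calls of Acta2 and Elovl3 were lost also without any 1 of 10 libraries of other groups (adjusted p 0.0515 to 0.0663 and 0.0625 to 0.0715). Samples share replicate numbers only: the correlation of same-numbered libraries' deviations was 0.0147 between recovered and injured, -0.0364 between recovered and 2 weeks and 0.151 between recovered and control, and over the 28 pairs of groups it ran from -0.206 to 0.587, highest between injured and control, whose replicate 1 libraries are both low in Malat1. With the replicate number as a block the counts were 2809 against injury, 3897 against control and 56 against 2 weeks, and 1 named call, Elovl3, was lost (adjusted p = 0.0645). Genes under 1 CPM are the least precise.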

Other observations

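Other lists of the comparison of recovered with injured liver were counted in the same way, where 6.47% of all tested genes were called higher and 8.39% lower. In the list of the integrated stress response and serine synthesis 2 of 16 genes rose and 5 fell, with leave-out counts of 2, 1, 1 and 2 higher, and 1, 0 with 6 unadjusted, 1 and 5 lower. Chac1, which breaks down glutathione and is a target of ATF4, had 4.22 and 2.51 CPM in the recovered libraries, against 0.308 and 0.0632 CPM in the injured libraries (log2 fold change 4.10 ± 0.80, adjusted p = 0.00664), and Slc3a2, the heavy chain of amino acid carriers, had 29.1 and 29.6 CPM in the recovered libraries, against 45.6 and 46.7 CPM in the injured libraries (log2 fold change -0.65 ± 0.14, adjusted p = 0.0097). Of 17 chaperone genes of the endoplasmic reticulum 2 rose, with leave-out counts of 0 with 2 unadjusted, 4, 0 with 3 unadjusted and 1, among them Herpud1, of protein degradation there, with 723 and 500 CPM in the recovered libraries, against 140 and 149 CPM in the injured libraries (log2 fold change 2.08 ± 0.44, adjusted p = 0.00931). Acute phase genes rose in 4 of 20 cases and fell in 1, with leave-out counts of 2, 4, 2 and 3 higher. Crp, C-reactive protein, had 335 and 274 CPM in the recovered libraries, against 88.6 and 87.7 CPM in the injured libraries (log2 fold change 1.79 ± 0.24, adjusted p = 0.00105), and Saa4, a constitutive serum amyloid, had 278 and 168 CPM in the recovered libraries, against 45.5 and 52.5 CPM in the injured libraries (log2 fold change 2.19 ± 0.36, adjusted p = 0.00265). The groups of these genes were apart. The list medians depended on 1 recovered library. The acute phase median of 0.37 was -0.18 without recovered replicate 1 and 0.68 without recovered replicate 2. The chaperone median of 0.60 was -0.11 and 1.00 in the same fits. The acute phase list summed to 19670 and 12962 CPM in the recovered libraries, against 15029 and 11818 CPM in the injured libraries, so these sums overlapped. Cxcl12, a chemokine of stromal and endothelial cells, had 290 and 299 CPM in the recovered libraries, against 121 and 140 CPM in the injured libraries (log2 fold change 1.17 ± 0.17, adjusted p = 0.00137), while Cxcl10, an interferon-induced chemokine, had 5.3 and 2.14 CPM in the recovered libraries, against 19.8 and 11.2 CPM in the injured libraries (log2 fold change -2.07 ± 0.39, adjusted p = 0.00594). Klf6, a transcription factor of early injury, fell, with 19.4 and 22.6 CPM in the recovered libraries, against 84.2 and 80.2 CPM in the injured libraries (log2 fold change -1.97 ± 0.28, adjusted p = 0.00135). Herpud1 (adjusted p = 0.0653) and Cxcl10 (0.0528) did not pass without injured replicate 1. Slc3a2 (adjusted p = 0.0741) and Herpud1 (0.067) missed the threshold without recovered replicate 1. Slc3a2 (adjusted p = 0.0682) did not pass without recovered replicate 2. Cxcl10 (adjusted p = 0.0547) missed the threshold in a fit of the 4 libraries alone.

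Genes that handle drugs rose in 7 of 24 tested cases and fell in 4. The leave-out counts were 5, 4, 5 and 5 higher, and 1, 2, 1 and 3 lower. Cyp2j9, an epoxygenase, had 14.1 and 15.8 CPM in the recovered libraries, against 1.93 and 1.58 CPM in the injured libraries (log2 fold change 3.09 ± 0.31, adjusted p = 0.000216), above control too at 2.65 and 5.17 CPM (log2 fold change 1.92 ± 0.29, adjusted p = 0.0062). Cyp2a5, the coumarin hydroxylase that liver injury raises, had 601 and 793 CPM in the recovered libraries, against 3861 and 3091 CPM in the injured libraries (log2 fold change -2.32 ± 0.28, adjusted p = 0.00059), while control had 602 and 558 CPM, and its reads are shared with near-identical copies. Nr1i3, the receptor CAR that switches on such genes, rose with 147 and 186 CPM in the recovered libraries, against 33.8 and 56.5 CPM in the injured libraries (log2 fold change 1.88 ± 0.31, adjusted p = 0.00278). In the choline and phospholipid list 4 of 18 genes rose and 2 fell, with leave-out counts of 1, 1, 2 and 4 higher, and 2, 1, 1 and 2 lower. Chpt1, which makes phosphatidylcholine from CDP-choline, had 254 and 259 CPM in the recovered libraries, against 119 and 81.4 CPM in the injured libraries (log2 fold change 1.36 ± 0.27, adjusted p = 0.00749), and Slc44a3, of a family of choline carriers, had 6.33 and 6.3 CPM in the recovered libraries, against 16.7 and 12.2 CPM in the injured libraries (log2 fold change -1.20 ± 0.18, adjusted p = 0.00173). Each recovered value lay on 1 side of both injured values in all these genes. Ahcy, which clears S-adenosylhomocysteine, had 1375 and 1558 CPM in the recovered libraries, against 530 and 593 CPM in the injured libraries (log2 fold change 1.39 ± 0.31, adjusted p = 0.0134). Ahcy (adjusted p = 0.0829) did not pass without injured replicate 1. Ahcy (adjusted p = 0.0518) missed the threshold without recovered replicate 1. Ahcy (adjusted p = 0.0824) did not pass without recovered replicate 2.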
